A study of Mus musculus with 6 samples.

Results

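The PGC-1 coactivators were examined in cultured mouse brown adipocytes that lacked PGC-1α, or lacked PGC-1α and had lowered PGC-1β. The family has 3 genes, Ppargc1a (PGC-1α), Ppargc1b (PGC-1β) and Pprc1 (PRC, the PGC-1-related coactivator). All probe sets that the platform annotation assigns to only one of these symbols were taken, which gave 3 of 18193 named genes and 7 of the 45037 probe sets of the array: 5 for Ppargc1a, 1 for Ppargc1b and 1 for Pprc1. Each of the 7 had a value on all 6 arrays and passed the filter on dim probe sets, and 0 probe sets named a family member together with another gene.

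The 3 groups had 2 arrays each. Wild-type cells carried both coactivator genes. Knockout-control cells were PGC-1α -/- and expressed a control siRNA. Knockdown cells were PGC-1α -/- and expressed an siRNA against PGC-1β. All 6 cultures were brown preadipocytes immortalised with the SV40 large T antigen and taken on day 7 of differentiation. The labels name no siRNA for wild-type cells, and they give passage 4 and, for 1 array, a mixed mouse background for that group alone, so genotype, siRNA and cell line cannot be told apart in a comparison with wild type. The labels do not say how many independent clones or siRNA sequences were used. The replicates are biological in the series description, which does not say at which step they were separated.

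PGC-1 proteins do not bind DNA themselves. They dock on nuclear receptors and other transcription factors, among them PPARs, the estrogen-related receptors and NRF1, and recruit acetyltransferases and the Mediator complex to the promoter. PGC-1α is the member whose transcript is induced by cold and cAMP in brown fat, where it drives the uncoupling protein Ucp1, while PGC-1β acts more steadily on mitochondrial genes and PRC is known as a growth-regulated member that works with NRF1.

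The arrays were similar in overall brightness, with medians of 220.9 to 242.7 intensity units, and their number limits the precision. Knockdown array 1 was brighter than knockdown array 2 by a median of 0.20 on the log2 scale over the 27018 probe sets above the filter, against -0.02 and -0.11 for array 1 minus array 2 in wild type and knockout-control. Of 10 brown adipocyte markers 9 were measured, all 9 above the filter, and their summed intensity was 52844.0 and 52907.5 in wild type, 51183.2 and 49553.4 in knockout-control, and 39244.8 and 34746.0 in knockdown cells. The 9 markers did not move alike. From knockout-control to knockdown cells the mean of Ucp1 went from 3961.9 to 130.2, that of Fabp4 from 15159.0 to 14062.7 and that of Cox8b from 791.7 to 1163.5. In bulk RNA, fewer cells of a type and less RNA per cell cannot be told apart. The 5 measured preadipocyte and fibroblast markers summed to 4214.5 and 3618.6 in wild type. Their sums were 2584.7 and 2999.3 in knockout-control, and 4246.4 and 3718.4 in knockdown cells. The mean of Dlk1 went from 411.2 in knockout-control to 1530.7 in knockdown cells, and 2 of the 5 had a log2 fold change below 0. Sums for skeletal muscle, macrophage and endothelial markers lay within 1106.1 to 1640.5, 2810.1 to 3551.2 and 615.0 to 714.4 over the 6 arrays (the lowest muscle sum lacks Myod1, which has no value on knockout-control array 1), and the muscle markers Myog, Myf5 and Myh4, the macrophage marker Cd68 and the endothelial markers Pecam1 and Cdh5 were below the filter. The Y-linked gene Eif2s3y read 872.4 and 960.5 in wild type, 6.25 on knockout-control array 2 and 5.13 on knockdown array 2 and was missing on the rest, so wild-type and PGC-1α -/- cells also differ in a sex-linked transcript.

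Shown here is 1 promoter window each for Ppargc1a and Pprc1, and any other start of either gene was not examined. These 2 genes were chosen because their mean signals lay on opposite sides of wild type in knockout-control cells. Ppargc1a is the gene knocked out and Pprc1 was not called. A link between the promoters and these values was not tested. Each window runs from 250 bases before to 50 bases after the RefSeq start in GRCm38.p6, at chr5:51567676-51567975 on the minus strand for Ppargc1a and at chr19:46056289-46056588 on the plus strand for Pprc1, read 5′ to 3′. Capitals mark the core of a CREB site, TGACG, on either strand.
Ppargc1a: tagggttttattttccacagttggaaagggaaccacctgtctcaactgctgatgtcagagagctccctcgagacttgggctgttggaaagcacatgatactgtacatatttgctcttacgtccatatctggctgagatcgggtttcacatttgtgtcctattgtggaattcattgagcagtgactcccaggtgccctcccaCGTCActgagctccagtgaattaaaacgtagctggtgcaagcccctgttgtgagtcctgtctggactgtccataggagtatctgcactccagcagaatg
Pprc1: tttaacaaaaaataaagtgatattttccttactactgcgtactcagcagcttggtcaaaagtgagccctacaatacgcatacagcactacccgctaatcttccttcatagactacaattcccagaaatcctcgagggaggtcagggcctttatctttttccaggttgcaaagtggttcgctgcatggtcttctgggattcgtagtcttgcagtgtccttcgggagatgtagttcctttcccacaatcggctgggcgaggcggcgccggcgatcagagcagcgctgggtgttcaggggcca
The Ppargc1a window held 1 CREB core, on the reverse strand, 49 bases before the start, and the Pprc1 window held 0. That core is in 20.8% of all 32851 promoter windows of the same length. Neither window held the core of the estrogen-related receptor site (AAGGTCA, in 4.72% of windows), the palindromic NRF1 site (in 4.6%) or the ETS core of GABP (CCGGAAG, in 8.86%), searched on both strands. A match describes letters and not binding.

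Ppargc1a, the gene knocked out, had a lower signal in the knockout-control cells on every probe set. Probe set 1434099_at had intensities of 757.9 and 876.9 in wild type, while knockout-control had 486.1 and 474.5. Probe set 1434100_x_at, which the annotation derives from the same source sequence, had 809.0 and 893.4 in wild type, with 460.1 and 480.6 in knockout-control. The _x_at in its name is the array maker's mark for probes that may also match other transcripts. On 1437751_at the values were 702.8 and 734.2 in wild type against 402.2 and 484.7. On 1456395_at they were 516.9 and 552.1 against 281.8 and 310.2. On 1460336_at they were 1338.0 and 1319.4 against 767.4 and 830.4. The 2 groups did not overlap on any of the 5 probe sets, where 29.6% of 26821 probe sets were lower without overlap. The knockout-control mean was 55.3% to 61.7% of the wild-type mean.

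The size of that difference was similar over the 5 probe sets, at log2 fold changes of -0.81 to -0.66 on the scale of log2(intensity + 32). The limma test, adjusted by Benjamini-Hochberg over all probe sets, called 1 of the 5 lower, against 3.25% of 27006 probe sets tested (5.42% in either direction). All 5 had an unadjusted limma p under 0.05, as had 19.6% of all probe sets. The one that fell was 1434100_x_at (-0.81 ± 0.19 SE, limma adjusted p = 0.0435), and 1434099_at (-0.73 ± 0.17), 1456395_at (-0.79 ± 0.20), 1437751_at (-0.66 ± 0.18) and 1460336_at (-0.71 ± 0.24) had limma adjusted p = 0.0518, 0.0568, 0.0774 and 0.141. The 5 probe sets read the same gene on the same arrays and are not independent. Between 2.90% and 4.87% of all probe sets had a lower fold change in this comparison. Which of the 5 passed depended on the arrays used, as did the number called over all probe sets. With 1 array left out in turn, the log2 fold change of 1434100_x_at ranged from -0.88 to -0.74. Those of 1434099_at, 1437751_at, 1456395_at and 1460336_at ranged from -0.83 to -0.62, -0.79 to -0.54, -0.85 to -0.73 and -0.77 to -0.66. The sources used here do not give the deleted part of the gene or the positions of the probes, so a signal of 281.8 to 830.4 in knockout-control cells neither checks the deletion nor measures intact PGC-1α transcript.

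**Figure D1:**
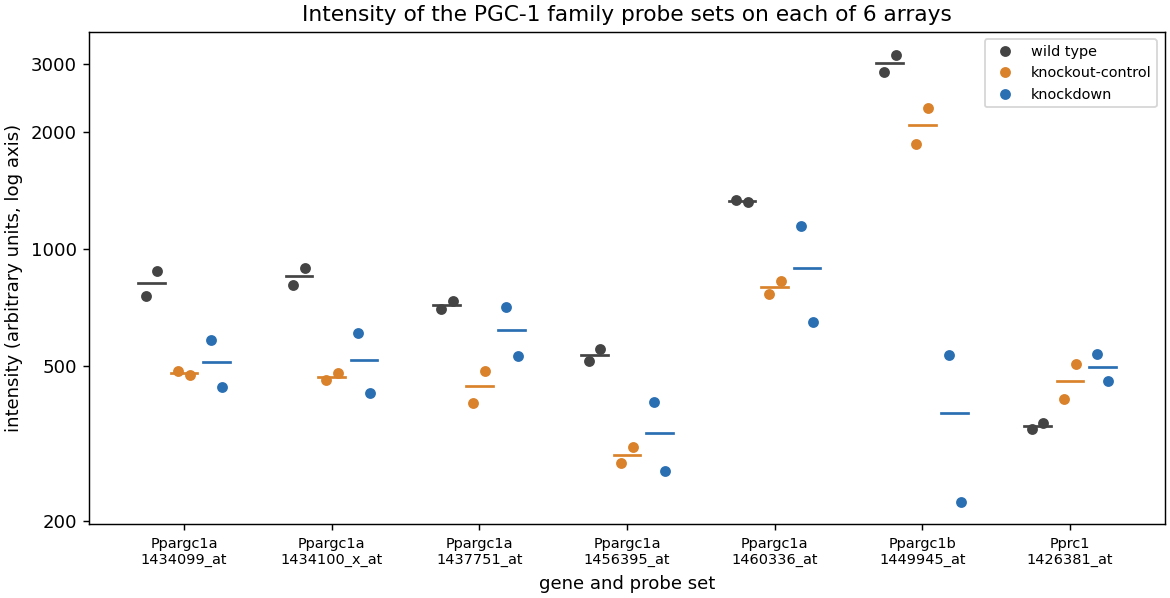
Intensity in arbitrary units on a log axis for the 7 probe sets of the PGC-1 family. Each point is 1 array, and each bar is the mean of a group's 2 arrays. All 5 Ppargc1a probe sets are lower in knockout-control than in wild type, and Ppargc1b drops to 533.8 and 223.8 in knockdown cells.

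In knockdown cells, which carry the same PGC-1α -/- genotype, the Ppargc1a probe sets had means of 107% to 140% of knockout-control, and 0 of 5 were called in the limma test, with 118 of 27003 probe sets called (0.437%) and 13.1% at an unadjusted p under 0.05. Of the 5, only 1437751_at had an unadjusted limma p under 0.05. The 2 knockdown arrays disagreed: 1460336_at stood at 1145.9 on array 1 and 647.8 on array 2, which lie above and below both knockout-control values. The same held for 1434099_at (584.9 and 442.5), 1434100_x_at (609.9 and 427.9) and 1456395_at (403.7 and 268.4). Only 1437751_at, at 709.5 and 530.8, was above both knockout-control arrays (as were 16.6% of all probe sets), and its first value lay within the wild-type range of that probe set. Log2 fold changes against knockout-control were 0.08, 0.11, 0.14 and 0.11 for 1434099_at, 1434100_x_at, 1456395_at and 1460336_at, with 95% intervals from -0.44 to 0.66 at the widest, and 0.45 (0.03 to 0.86, limma adjusted p = 0.345) for 1437751_at. Without knockdown array 1 the first 4 turned negative, at -0.11, -0.13, -0.13 and -0.29.

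Against wild type, knockdown cells were lower on 4 of the 5 Ppargc1a probe sets without overlap and overlapped on 1437751_at, where the mean was 86.3% of wild type. The other 4 stood at 67.5% of wild type or less. A lower value without overlap was found for 29.8% of all probe sets. None of the 5 was called in the limma test (adjusted p = 0.0554 to 0.525), where 8.68% of all probe sets were called, 5.38% lower, and 24.2% had an unadjusted p under 0.05, as did 4 of the 5. Without knockdown array 1, which left 1 array in that group, the 4 probe sets without overlap lay further below wild type. The log2 fold changes of 1434099_at, 1434100_x_at and 1456395_at were then -0.84, -0.94 and -0.91, and that of 1460336_at was lower still.

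**Figure D2:**
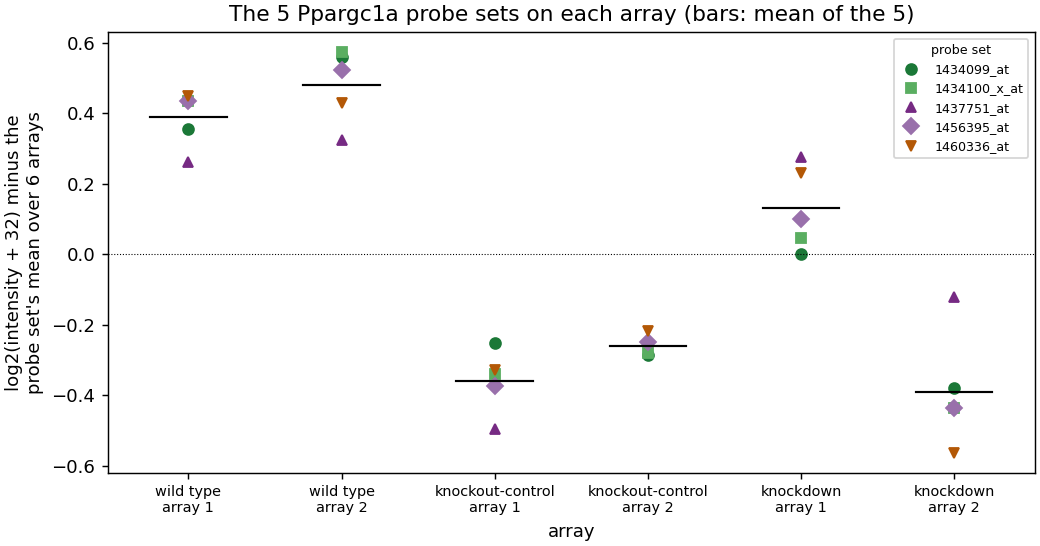
The 5 Ppargc1a probe sets on each array, as log2(intensity + 32) minus that probe set's mean over the 6 arrays. Bars are the mean of the 5 probe sets, at 0.39 and 0.48 in wild type, -0.36 and -0.26 in knockout-control, and 0.13 and -0.39 in knockdown cells, where 1437751_at lies above the other 4 on both arrays.

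The 5 probe sets followed each other closely across arrays. After each was centred on its own mean, the SD over the 5 was 0.03 to 0.10 (log2) on the 4 arrays of wild type and knockout-control, and on the knockdown arrays it was 0.12 and 0.16. The mean of the 5 was 0.13 on knockdown array 1 and -0.39 on array 2, a wider gap than in either other group.

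Ppargc1b, the siRNA target, fell in knockdown cells. Its probe set 1449945_at, on a gene of chromosome 18, stood at 2849.5 and 3162.3 in wild type, at 1862.3 and 2301.8 in knockout-control, and at 533.8 and 223.8 in knockdown cells. The 3 groups did not overlap and lay in the order wild type, knockout-control, knockdown. The fall from knockout-control to knockdown was 5.53-fold (log2 fold change -2.47 ± 0.32 SE, 95% interval -3.21 to -1.73, limma adjusted p = 0.0314), where 0.285% of probe sets were called lower and 21.1% were lower without overlap. Only 6 of 27003 probe sets had a lower fold change in that step. Against wild type the fall was 7.97-fold (-3.00 ± 0.32, limma adjusted p = 0.00168), where 5.38% of probe sets were called lower and 29.8% were lower without overlap. The share of probe sets with all 3 groups apart in this order was not counted. The fall against knockout-control did not pass without knockout-control array 1 or 2 (limma adjusted p = 0.148 and 0.18), and its size ranged from -3.04 to -1.89 with each array left out in turn. With no filter on dim probe sets it did not pass either (limma adjusted p = 0.27).

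The remaining Ppargc1b signal was uneven between the knockdown cultures. Array 1 kept 25.6% of the mean knockout-control intensity and array 2 kept 10.7%. The ratio of array 1 to array 2 was 2.38, and 0.616% of all probe sets above the filter differed by more between these 2 arrays on the log2 scale. All 7 family probe sets were brighter on array 1, by ratios of 1.17 for Pprc1 and 1.32 to 1.77 for Ppargc1a. Over all probe sets above the filter, the median difference of array 1 minus array 2 was 0.20 (log2) in this group. Whether the overall difference accounts for the members' differences was not tested.

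Between wild type and knockout-control, where no siRNA against PGC-1β was present, Ppargc1b stood at 69.3% of wild type without overlap, as 29.6% of probe sets were lower without overlap. That difference was not called (-0.53 ± 0.32, 95% interval -1.27 to 0.21, limma adjusted p = 0.424), and the interval includes a fall as large as that of any Ppargc1a probe set.

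Pprc1, targeted by neither change, was not called in any comparison. Its probe set 1426381_at stood at 343.9 and 356.8 in wild type, 411.9 and 506.0 in knockout-control, and 538.6 and 458.5 in knockdown cells. Both PGC-1α -/- groups lay above wild type without overlap, and they overlapped each other. The log2 fold changes were 0.35 ± 0.16 SE for knockout-control against wild type and 0.47 ± 0.16 for knockdown against wild type (limma adjusted p = 0.283 and 0.124). A higher value without overlap was found for 27.3% and 24.0% of all probe sets in these comparisons, which share the wild-type arrays. The knockdown step gave 0.11 ± 0.16 (95% interval -0.26 to 0.49), and turned to -0.02 when knockout-control array 1 was left out. With quantile-normalized arrays the difference between knockdown cells and wild type passed (0.52, limma adjusted p = 0.0345).

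**Figure D3:**
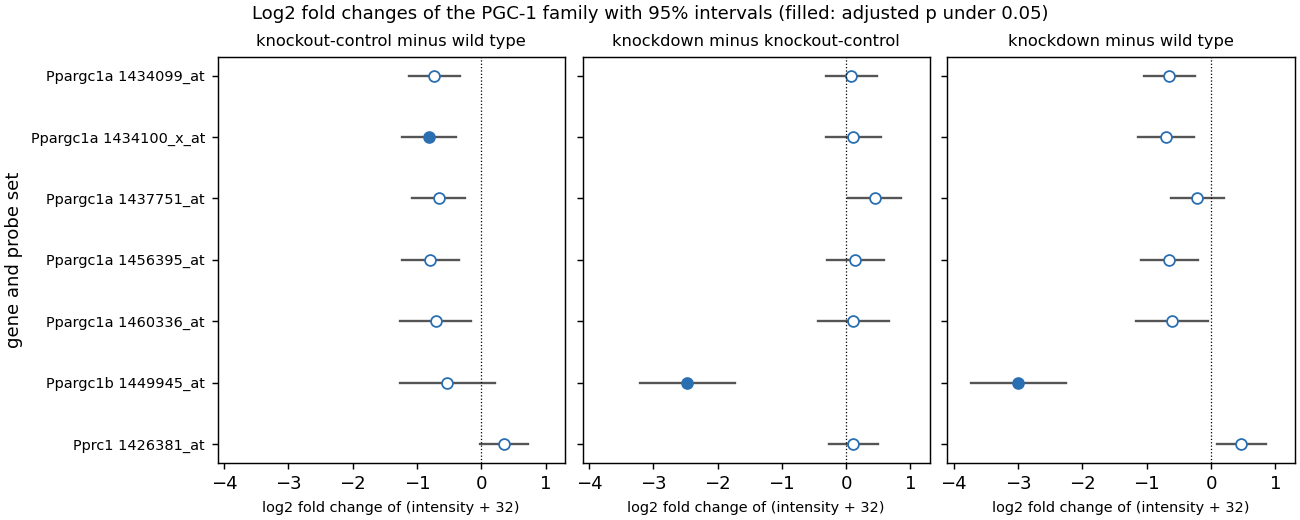
Log2 fold changes of log2(intensity + 32) with 95% intervals for the 7 probe sets in the 3 comparisons. Filled points have a limma adjusted p under 0.05: 1 Ppargc1a probe set in knockout-control against wild type (-0.81), and Ppargc1b in both comparisons of knockdown cells (-2.47 and -3.00).

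The genes whose profile over the 6 arrays was most like that of each member were found by the root mean square difference of centred log2 values, among the 13343 genes that passed the filter and had no missing array. For Ppargc1b these were Ano1 (0.372), a chloride channel, Tubb2a (0.416), a tubulin, Mb (0.419), myoglobin, Slc5a11 (0.479), a sodium-coupled solute carrier, and Phyh (0.487), a peroxisomal enzyme of phytanic acid breakdown, against a median of 1.34 over all genes. Mb stood at 7134.0 and 6825.6 in wild type, 3027.5 and 3846.7 in knockout-control, and 536.2 and 488.5 in knockdown cells. As for Ppargc1b the 3 groups did not overlap and knockdown cells were lowest, but the knockdown arrays of Mb lay close together. For Ppargc1a, taken as the mean of its 5 probe sets, the nearest were Tubb6 (0.05), Wdr70 (0.05), Cd302 (0.055), Nip7 (0.06) and Commd4 (0.06), against a median of 0.373. For Pprc1 they were Ppp1r35 (0.025), Cp (0.03), Dram2 (0.031), Zbtb45 (0.035) and Nmt1 (0.036), against a median of 0.278. A member with a small range has near neighbours of any small range, so the distances of different members cannot be set against each other. With 6 arrays in 3 groups such likeness is a description.

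Of 28 listed genes that set the level or activity of PGC-1, 25 were tested. In knockout-control against wild type 1 rose and 1 fell. These 2 of 25 are too few to set the list apart from all 13652 genes tested with 1 probe set each, of which 5.21% were called. Lpin1, lipin-1, a phosphatase that can also act with PGC-1α in the nucleus, rose 2.23-fold from 3210.7 and 3562.6 to 8012.9 and 7200.7 (1.16 ± 0.15 SE, limma adjusted p = 0.00423). Gsk3b, a kinase that marks PGC-1α for degradation, fell 1.80-fold (limma adjusted p = 0.0182). Lpin1 did not pass when array 1 of wild type or of knockout-control was left out (limma adjusted p = 0.066 and 0.0522), and Gsk3b did not pass when any 1 of the 4 arrays outside the knockdown group was left out (limma adjusted p up to 0.21). In the knockdown step 0 of 25 were called by limma, against 0.432% of all genes. Knockdown cells differed from wild type in the same 2 regulators, with Lpin1 1.84-fold higher and Gsk3b 1.78-fold lower (limma adjusted p = 0.0117 and 0.0148), a share of 25 no higher than the 8.64% of all genes called there, and both calls were lost without either wild-type array (limma adjusted p up to 0.142 and 0.17). Sirt1, the deacetylase that activates PGC-1α, gave 0.53 ± 0.24 and then -0.41 ± 0.24 (log2) over these comparisons, and Nrip1 (RIP140), a corepressor that opposes PGC-1, had 0.17 ± 0.15 and -0.47 ± 0.15, none of which passed.

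Among the transcription factors that PGC-1 proteins dock on, the estrogen-related receptor Esrra fell when PGC-1β was lowered. All 23 measured partners of 24 listed were tested. This list too was chosen with earlier results of these data known, so its share of calls is no independent evidence. Esrra stood at 949.9 and 926.4 in wild type, 1033.1 and 1226.0 in knockout-control, and 498.0 and 464.1 in knockdown cells, so the knockdown arrays lay below all others. The fall against knockout-control was 2.26-fold (-1.17 ± 0.15 SE, limma adjusted p = 0.0314), and it was the 1 partner called of 23 in that step (4.35%, against 0.432% of all genes). That call was lost when any 1 of the 4 arrays outside the knockdown group was left out (limma adjusted p up to 0.186) and with no filter on dim probe sets (0.27). Against wild type, Esrra fell 1.89-fold (limma adjusted p = 0.0103). Nrf1, a factor of respiratory gene promoters, gave 0.41 ± 0.14 for knockout-control against wild type and -0.13 ± 0.14 for the knockdown step, neither of them called.

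Knockdown cells differed from wild type in 6 of the 23 partners (26.1%, against 8.64% of all genes). Since the list was chosen with earlier results of these data known, this share is no independent evidence of a change in the partners. Beside Esrra, 3 fell. Gabpa, the ETS factor also called NRF2, fell 2.29-fold (limma adjusted p = 0.00799), at 1885.5 and 1887.5 in wild type, 1127.2 and 1308.8 in knockout-control, and 953.5 and 682.4 in knockdown cells. Its values in the 2 single steps did not pass (-0.62 ± 0.19 and -0.57 ± 0.19). Nr3c1, the glucocorticoid receptor, fell 2.27-fold, and Prdm16, a regulator of brown fat identity, 1.52-fold. Rxra, the common partner of nuclear receptors, rose 2.24-fold and Nr1h3 (LXRα) 1.62-fold, with limma adjusted p-values of 0.00843 to 0.0421 for these 4. One of the 3 Rxra probe sets above the filter had the opposite sign. Of these 6 calls 0 remained without wild-type array 2 and 1, that of Nr3c1, without wild-type array 1. The call of Prdm16 was also lost without either knockout-control array or knockdown array 2, and that of Nr1h3 without either knockout-control array. In knockout-control against wild type 2 partners rose (8.70%, against 5.21% of all genes), and 2 of 23 are too few to set the list apart. They were Foxo1, a forkhead factor of fasting metabolism (1.87-fold, limma adjusted p = 0.0134), and Rxra (1.79-fold, limma adjusted p = 0.0384). Both calls were lost when any 1 of the 4 arrays outside the knockdown group was left out.

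Of 12 proteins that PGC-1 recruits to the promoter 1 was called, in 1 of 3 comparisons (8.33%, near the 8.64% of all genes called there). Crebbp, the acetyltransferase CBP, was 1.55-fold lower in knockdown cells than in wild type (limma adjusted p = 0.0485), and the other 11 of 12 cofactors, which include the Mediator subunit Med1 and the acetyltransferase Ep300, were not called in limma. The Crebbp call was lost without any array other than knockdown array 1 (limma adjusted p up to 0.317). The list median was -0.21 in that comparison and -0.18 and -0.06 in the 2 single steps, against -0.03, 0.00 and -0.01 over all genes.

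Of 35 listed genes known to rise with PGC-1, 31 were tested. In the knockdown step 4 fell, 1 rose (16.1%, against 0.432% of all genes) and 26 did not pass. The log2 fold change was below 0 for 27 of the 31, against 51.5% of all probe sets, and the list median was -0.49 (all genes -0.01). Ucp1, which dissipates the mitochondrial proton gradient as heat, stood at 4488.4 and 4760.7 in wild type, 4198.9 and 3724.9 in knockout-control, and 155.8 and 104.7 in knockdown cells, a fall of 24.9-fold against knockout-control (limma adjusted p = 9.94e-05). Dio2, the thyroid hormone activating deiodinase, fell 4.93-fold, from 480.0 and 409.0 to 62.0 and 66.7. The knockdown values of both genes lie under the filter level of 163.6, which they passed through the other groups, so these folds depend on the pseudocount. Cox7a1, a cytochrome c oxidase subunit of heart, muscle and brown fat, fell 2.46-fold and Cidea, a lipid droplet protein, 2.28-fold. Pdk4, the kinase that turns off pyruvate dehydrogenase, rose 2.28-fold from 1258.7 and 1661.2 to 3403.9 and 3276.7 (limma adjusted p = 0.0402). The Ucp1 and Dio2 calls remained with any 1 array left out, but that of Dio2 was lost with no filter on dim probe sets (limma adjusted p = 0.0662), and its log2 fold change of -2.30 was -1.18 with the mean of its 2 probe sets, while those of Cox7a1, Cidea and Pdk4 were lost when any 1 of the 4 arrays outside the knockdown group was left out (limma adjusted p up to 0.177, 0.18 and 0.237), and that of Pdk4 also without knockdown array 2 (0.0554). The count of 5 was 12 without knockdown array 1 and 2 when any 1 of the 4 arrays outside the knockdown group was left out. The list was chosen with earlier results of these data known, so its count is no independent evidence of its direction.

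Between wild type and knockout-control 1 gene of the same list rose and 1 fell (6.45%, near the 5.21% of all genes), and the median was -0.04. Gpx1, a glutathione peroxidase, fell 2.16-fold (limma adjusted p = 0.00474), a call lost without either wild-type array or knockout-control array 1 (limma adjusted p up to 0.063). Elovl3, which lengthens saturated fatty acids in brown fat, rose 7.12-fold from 239.6 and 209.5 to 1686.2 and 1902.9, which is not the direction of the list's name. Tfam, the mitochondrial transcription factor, and Cycs, cytochrome c, had values of -0.12 ± 0.16 and 0.07 ± 0.18.

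Between wild type and knockdown cells 13 of the 31 fell and 2 rose (48.4%, against 8.64% of all genes), at a median of -0.58 (all genes -0.03). As the list was chosen with earlier results of these data known, that share is no independent evidence either. Sirt3, a mitochondrial deacetylase, fell 2.82-fold from 1669.7 and 1713.0 to 654.1 and 511.6 (limma adjusted p = 0.00238), with knockout-control between them at 1109.3 and 1346.2. The others with the largest falls were Ucp1 (29.1-fold), Dio2 (4.64-fold) and Cox7a1 (3.24-fold), and Tfam was among the 13 (1.58-fold, limma adjusted p = 0.0366). As in the knockdown step, the Ucp1 and Dio2 folds depend on the pseudocount, since their knockdown values lie under the filter level of 163.6. The log2 fold change of Dio2, -2.21, was -2.67 to -1.13 over the alternatives other than leaving out 1 array. Cycs, at 0.59 below wild type on the log2 scale, did not pass (limma adjusted p = 0.0833) and passed without knockdown array 1 (0.0121). The 2 that rose were Elovl3 (8.01-fold) and Pdk4 (2.22-fold). Without either wild-type array 6 of the 15 calls remained, those of Ucp1, Dio2, Cox7a1, Sirt3, Cidea and Elovl3, and the Tfam call was also lost without either knockout-control array or knockdown array 2 (limma adjusted p up to 0.0645 for these). The summed brown adipocyte markers were lower in knockdown cells as well, 4 of them being members of this list that fell. Of the 9 markers tested against wild type, 1, Elovl3, rose and 4 were not called. Fabp4 had means of 15186.0 in wild type and 14062.7 in knockdown cells, Adipoq 12035.0 and 9647.6, and Pparg 4098.7 and 4551.4. Of the 5 preadipocyte and fibroblast markers, Dlk1 and Pdgfra rose and Col1a1 fell against wild type, 3 of 5 had a value below 0 and the median was -0.38. Dlk1 stood at 466.5 and 332.9 in wild type, 384.4 and 437.9 in knockout-control, and 1609.1 and 1452.3 in knockdown cells, while Col1a1 stood at 2764.8 and 2291.3, 1416.9 and 1535.4, and 1614.9 and 1418.4. The part of these markers in the list's values was not tested.

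**Figure D4:**
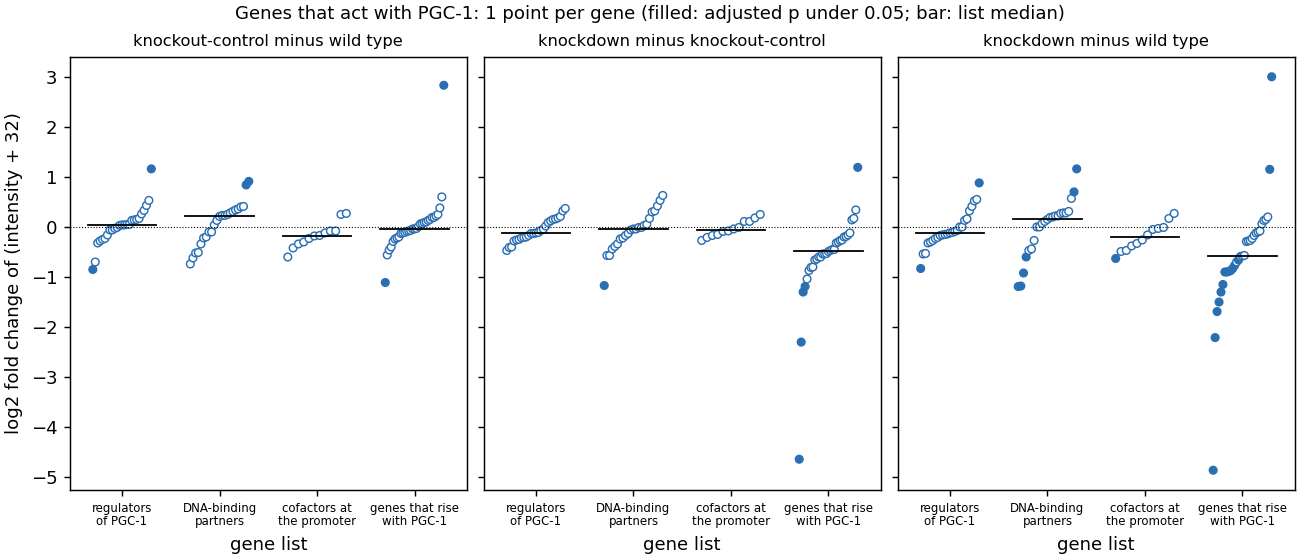
Log2 fold changes of log2(intensity + 32) for 4 lists of genes that act with PGC-1, 1 point per gene, in 3 comparisons. Bars are list medians and filled points have a limma adjusted p under 0.05. The list of genes that rise with PGC-1 has its median at -0.04 in knockout-control against wild type and at -0.49 and -0.58 in the 2 comparisons of knockdown cells.

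Genes next to Ppargc1a on chromosome 5 were examined because a knockout line can differ from wild type around the altered gene. Whether position bears on a gene's value was not tested. Against wild type, genotype, siRNA and cell line cannot be told apart. The 10 nearest tested genes on each side, in the order of the GRCm38.p6 gene table, gave 1 call of 20 between knockout-control and wild type, close to the 5.21% of all genes. The gene called was Sod3, extracellular superoxide dismutase, the third tested gene on the side of higher coordinates. It stood at 2445.5 and 2392.7 in wild type, 358.3 and 394.7 in knockout-control, and 404.4 and 331.1 in knockdown cells. Sod3 fell 6.01-fold (-2.59 ± 0.16 SE, limma adjusted p = 0.000182), with both of its probe sets called, and it was not called in the knockdown step (-0.04 ± 0.16, limma adjusted p = 0.952). The Sod3 call remained with any 1 array left out. The nearest tested genes on the other side, Adgra3 and 5730480H06Rik, had log2 fold changes of -0.07 ± 0.18 and 0.10 ± 0.16, and Dhx15 and 9230114K14Rik, between Ppargc1a and Sod3, had 0.01 ± 0.15 and -0.08 ± 0.25, and none of these 4 was called. In the knockdown step 0 of 20 were called by limma. Between wild type and knockdown cells Sod3 (6.16-fold) and Smim20 (1.59-fold) fell and Ncapg, a condensin subunit, rose 1.82-fold, which is 3 of 20 (15.0%, against 8.64% of all genes). The last 2 calls were lost without either wild-type array (limma adjusted p up to 0.254 and 0.214).

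**Figure D5:**
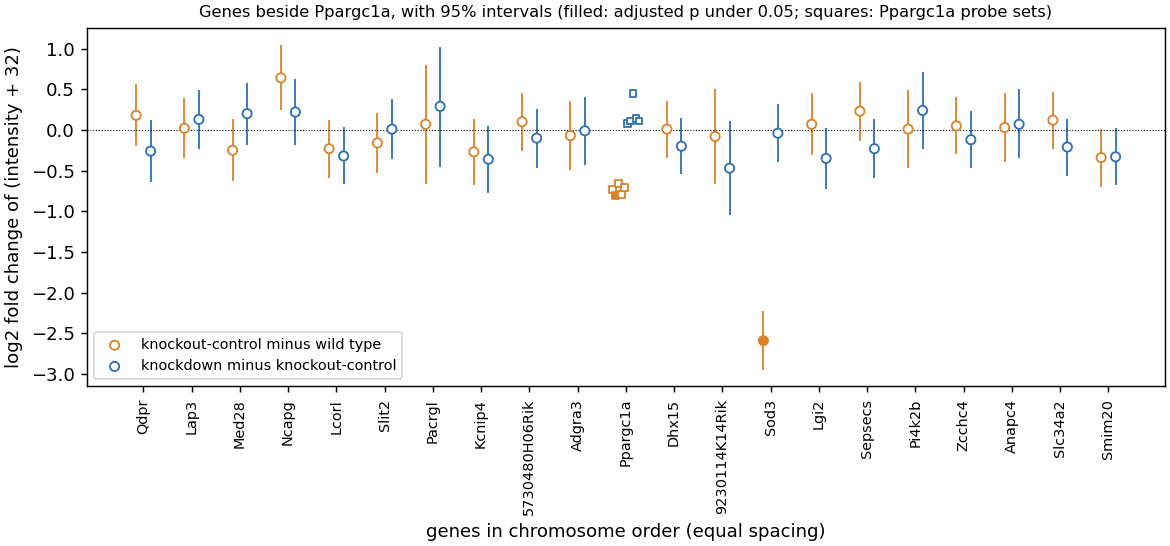
Log2 fold changes of log2(intensity + 32) with 95% intervals for the 10 nearest tested genes on each side of Ppargc1a, in chromosome order and drawn at equal spacing, with the 5 Ppargc1a probe sets as squares. Filled symbols have a limma adjusted p under 0.05. Sod3 is at -2.59 in knockout-control against wild type and at -0.04 in the knockdown step.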

How the data were processed

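Total RNA from each of 6 cultures was labelled with biotin and put on a 1-colour array, per the labels. The authors deposited 1 linear intensity per probe set and array, but the sources used here do not give the probe summary, background correction or scaling. Intensities were not scaled again. The 5285 cells holding the word null and the 870 empty cells were kept as missing. Symbols came from the platform annotation of 2016, updated by Entrez identifier in a GRCm38.p6 gene table (34741 of 34945 probe sets with 1 symbol matched). Values were taken as log2(intensity + 32), so fold changes of dim genes are understated. Probe sets with a mean below the 40th percentile (7.61, or 163.6 in intensity) were removed, and 27018 stayed. One limma model (version 3.58.1, R 4.3.3) with group means was fitted to all 6 arrays (3 residual and 5.36 prior degrees of freedom), with Benjamini-Hochberg adjustment over all probe sets tested in a comparison and calls at adjusted p under 0.05. Its code was also run on simulated data with independent noise per probe set and no shift between arrays. That run cannot vouch for the calls in these data. A gene that is no member was represented by its brightest probe set, and list genes were named up to 4 per direction and comparison, with 8 fixed genes beside them (Ucp1, Esrra, Nrf1, Gabpa, Tfam, Cycs, Nrip1 and Sirt1). The alternatives were other pseudocounts, filters, normalizations and model settings, single arrays left out and a replicate block. With 2 arrays a group, exact permutation gives p = 0.333 at best and was not used. P-values measure the spread between these arrays. The members and lists were chosen with earlier results of these data known. Adrb3, Ncor1, Ucp2, Cpt1b, Gyk, Plin1 and Ly6a had no probe set named for them alone, and Camk4 and Perm1 were below the filter. 1 other listed gene is not reported here. The promoter sequences are from RefSeq (GRCm38.p6), and both members looked up for printing matched.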

Additional observations from a re-analysis of the deposited data

How the results depend on the processing

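The direction of Ppargc1b and of the 5 Ppargc1a probe sets against wild type held under all alternatives run. Between knockout-control and wild type 1 Ppargc1a probe set was called, against 0 with pseudocount 1, with no filter and with the replicate block, 3 with pseudocount 64, with trend and robust settings or with the filter raised to the 60th percentile, 4 after quantile normalization or median scaling, and 5 with only the 2 groups compared (0 to 5 with 1 array left out). Between knockdown and wild type the count was 1 with pseudocount 64 or median scaling, 2 with the filter at the 60th percentile or trend and robust settings, and 3 after quantile normalization, against 0 (0 to 4 with 1 array left out). Both gene-level alternatives gave no count of Ppargc1a probe sets. The fall of Ppargc1b against knockout-control did not pass with pseudocount 1 (-2.58, limma adjusted p = 0.0503), with no filter (-2.47) or with the replicate block (-2.47, limma adjusted p = 0.0772), and ranged from -3.04 to -1.89 with 1 array left out. Pprc1 ranged from -0.02 to 0.25 in that step, turning negative (-0.02) without knockout-control array 1, and passed against wild type after quantile normalization (0.52).

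The number of probe sets called between knockout-control and wild type, 1464, was 408 with no filter, 2651 after quantile normalization, 3215 with the 2 groups alone, 826 and 785 with 1 feature per gene (brightest probe set and mean), 715 with the replicate block, and 366 to 3215 with 1 array left out. The 118 of the knockdown step became 48 with pseudocount 1, 218 with pseudocount 64, 1 with no filter, 232 at the 60th percentile, 422 after quantile normalization, 490 with trend and robust settings, 33 with the 2 groups alone, 17 with the replicate block, and 7 to 869 with 1 array left out. The 2343 between knockdown and wild type became 482 with no filter, 3819 after quantile normalization, 1365 and 1269 with 1 feature per gene, 1238 with the replicate block, and 455 to 4218 with 1 array left out. These counts move with the number of features tested and arrays used, and otherwise the cause was not tested.

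The deviations of arrays of the same number correlated at 0.18 (wild type and knockout-control), -0.11 (wild type and knockdown) and -0.49 (knockout-control and knockdown), so the numbers were not taken as pairs. In knockout-control and knockdown, arrays of the same number thus tended to deviate in opposite directions. With the knockdown numbers crossed in the replicate block, an alternative chosen after seeing the data, 3288, 1000 and 4503 probe sets and 5, 0 and 3 Ppargc1a probe sets were called in the 3 comparisons. Other values that changed sign were those of 4 Ppargc1a probe sets in the knockdown step without knockdown array 1 (from -0.11 to 0.27, -0.13 to 0.35, -0.13 to 0.41 and -0.29 to 0.50 with 1 array left out, in the order 1434099_at, 1434100_x_at, 1456395_at and 1460336_at), Tfam in knockout-control against wild type without knockout-control array 1 (-0.24 to 0.00), Nrip1 in knockdown cells against wild type with the mean of its probe sets (0.08) and Sirt1 in that comparison without knockdown array 1 (-0.23 to 0.49). In the knockdown step the calls of Esrra, Cox7a1, Cidea and Pdk4 were lost with no filter (limma adjusted p = 0.27, 0.27, 0.254 and 0.27), with the 2 groups alone (0.0778, 0.0654, 0.0694 and 0.0904) and with the replicate block (0.113, 0.0981, 0.093 and 0.125), that of Pdk4 also with pseudocount 1 (0.0572), and that of Dio2 with no filter (0.0662). Against wild type those of Esrra and Pdk4 were lost with no filter (0.0725 and 0.0568). The log2 fold change of Ucp1 in the knockdown step was -4.94 to -4.38 and that of Dio2 -2.76 to -1.18 over the alternatives other than leaving out 1 array. Of the 5 genes most like each member, 3 to 5 for Ppargc1a, 4 to 5 for Ppargc1b and 0 to 5 for Pprc1 remained under 4 alternatives.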
